A study of Mus musculus with 2 samples.

Results

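*Penk* (ENSMUSG00000045573), the gene for proenkephalin, was followed through single TCRβ+ cells of 2 mice, *Foxp3Cre* WT and DKO-severe. It is 1 of the 32285 genes in the deposited matrices. It was selected on its measured level in these cells, so its levels by gate and genotype are given as a description. At least 1 *Penk* UMI (a distinct captured transcript molecule) was found in 422 of 6583 retained WT cells and in 1664 of 6359 retained DKO-severe cells. In GENCODE M21 (build GRCm38, which is mm10), *Penk* lies on the minus strand of chromosome 4 from 4133531 to 4138819. The coding exons of transcript Penk-201 run from 4138006 to 4138477 and from 4133531 to 4134507, and its 3' UTR is in the second of these. Sequencing from the 3' end reads mostly there. The annotation places 1 other gene over it, *A830012C17Rik*, on the opposite strand.

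Proenkephalin is the precursor that is cut into the opioid peptides met-enkephalin and leu-enkephalin. Prohormone convertases such as PCSK1 cut it in the secretory pathway, carboxypeptidase E trims the products, and the peptides act mainly on the delta and mu opioid receptors. Neurons of the brain and chromaffin cells of the adrenal medulla are the classic sources. Among lymphocytes, *Penk* has been described in Treg cells, the Foxp3-expressing cells that restrain other T cells, and in activated helper T cells.

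The cells came from spleen and cervical and inguinal lymph nodes, pooled, of 14-week-old mice, with 1 mouse per genotype. The WT mouse carried the Cre-bearing *Foxp3* allele with intact *Tet2* and *Tet3*, and the DKO-severe mouse (*Foxp3-Cre Tet2/3fl/fl*) carried the same allele with floxed *Tet2* and *Tet3*, which encode enzymes that oxidise 5-methylcytosine, and belonged to the class with the larger number of leukocytes in spleen and lymph nodes. Cre driven by *Foxp3* may be leaky according to the study, so deletion need not be limited to cells that express Foxp3. Cells of the mice were told apart by antibody hashtags and shared 1 mRNA library, so free RNA from DKO-severe cells can enter droplets of WT cells. With 1 mouse per genotype no test between genotypes is possible and the spread between mice is unknown. All intervals are exact 95% intervals and cover counting error only.

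The matrices shared no barcode. The median depth of retained cells was 5617 UMIs (WT) and 8066 UMIs (DKO-severe). A *Cd3d*, *Cd3e* or *Cd3g* UMI was found in 99.4% and 94.8% of them. In Cd4-gated cells *Tet2* was at 52.7 counts per 1000000 UMIs (CPM) in WT and 72.0 in DKO-severe, and *Tet3* at 115 and 98.9. These 3' counts need not report on the floxed exons, so they do not check the deletion.

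Gates were set on UMIs of marker genes. Cd4-gated cells had a *Cd3* UMI and a *Cd4* UMI and none of *Cd8a* or *Cd8b1*, and were split by the presence of a *Foxp3* UMI. Cd8-gated cells had a *Cd3* UMI and a *Cd8a* or *Cd8b1* UMI without *Cd4*. Innate-like cells had *Cd3* and *Zbtb16*, which encodes the factor PLZF. Cycling cells had *Cd3* and 2 or more of 6 cell cycle genes, and B-gated cells lacked *Cd3* and had UMIs of 2 or more listed B cell genes. The innate-like and cycling gates overlap with the others. Shares of cells were taken after every cell was thinned at random to 3800 UMIs, which left out 687 WT and 476 DKO-severe cells below that depth, and the gates of these shares were read on the thinned counts. Levels in CPM used all UMIs and gates read on all UMIs. In such bulk levels, fewer expressing cells and less RNA per cell cannot be told apart, which is why shares and UMIs per cell are given too.

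*Penk* was high in Cd4-gated cells of the DKO-severe mouse, with and without a *Foxp3* UMI, and low in its Cd8-gated and B-gated cells. In Foxp3-positive Cd4-gated cells, 52 of 84 DKO-severe cells (61.9%, 50.7 to 72.3) and 3 of 25 WT cells (12%, 2.55 to 31.2) held a *Penk* UMI. In Foxp3-negative Cd4-gated cells the share was 29.9% in DKO-severe (554 of 1853 cells, 27.8 to 32.0) and 4.34% in WT (53 of 1220, 3.27 to 5.64). The intervals of the genotypes did not overlap in either Cd4 gate. Within the DKO-severe mouse they did not overlap between the Foxp3-positive and Foxp3-negative gates either. Such intervals cover counting error over cells and not the spread between mice. *Penk* was selected on its level in these cells, so these gaps are a description and not a test.

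The Cd8 and B gates served as the reference for background. B cells were taken as a type that should lack the transcript. Whether Cd8-gated cells lack it was not tested, so background here means the low shares of these gates. In Cd8-gated cells of the WT mouse *Penk* was found in 116 of 2935 (3.95%, 3.28 to 4.72) and of the DKO-severe mouse in 77 of 1565 (4.92%, 3.90 to 6.11), at median depths of 6247 and 9187 UMIs before thinning. In B-gated DKO-severe cells, whose median depth was 5074 UMIs, the share was 2.96% (5 of 169, 0.967 to 6.77). Each of those 5 B-gated cells held a single *Penk* UMI. The share in WT Foxp3-negative Cd4-gated cells, at a median depth of 5261 UMIs, lay inside the range of these background shares. By share at 1 or more UMIs, this gate was not told apart from these reference gates. Its level before thinning was 18.2 CPM (15.6 to 21.1), against 9.86 CPM (8.56 to 11.3) in WT Cd8-gated cells. There 6 of 1675 cells, each with 5 or more UMIs, held 37.6% of its *Penk* UMIs. Without them the level was 11.45 CPM. The interval of the WT Foxp3-positive gate, with 3 cells, spans the background shares as well. The 8 WT B-gated cells, 2 of them with a *Penk* UMI, were too few for a share.

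**Figure D1:**
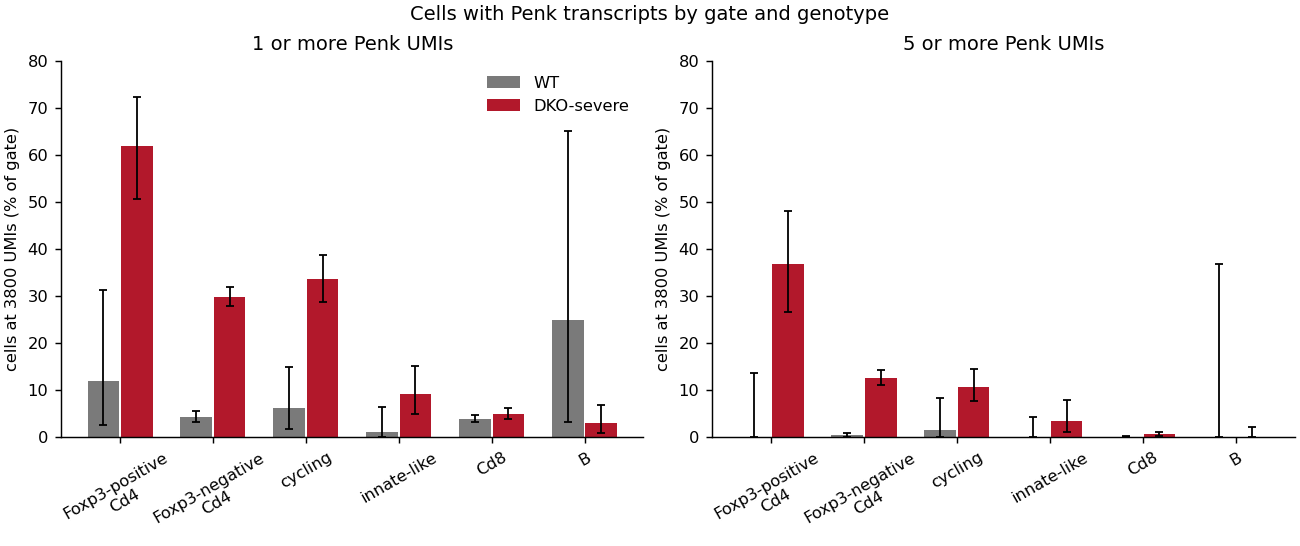
Bars show the share of cells (% of the gate, each cell thinned to 3800 UMIs) with 1 or more (left) and 5 or more (right) *Penk* UMIs in WT (grey) and DKO-severe (red) cells, with exact 95% binomial intervals. At 5 or more UMIs the DKO-severe Foxp3-positive Cd4 gate stands at 36.9% and the Cd8 gate at 0.639%, and the wide WT intervals of the Foxp3-positive and B gates come from 25 and 8 cells.

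The number of *Penk* UMIs per cell separated background from cells with many transcripts. Among the 116 WT Cd8-gated cells with *Penk*, 112 held 1 UMI. Among the 554 DKO-severe Foxp3-negative Cd4-gated cells with *Penk*, 148 held 1 UMI, 171 held 2 to 4, 119 held 5 to 9 and 116 held 10 or more. Most of these DKO-severe cells carried more than the single UMI typical of background.

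At 5 or more UMIs the share was 36.9% in DKO-severe Foxp3-positive cells (31 of 84, 26.6 to 48.1) and 12.7% in Foxp3-negative cells (235 of 1853, 11.2 to 14.3). In WT the corresponding counts were 0 of 25 (a count of 0 allows up to 12%) and 5 of 1220 (0.410%, 0.133 to 0.954). In Cd8-gated cells they were 10 of 1565 DKO-severe cells and 1 of 2935 WT cells. This threshold was chosen after the UMI distribution had been seen. The mean over all cells of the gate was 5.77 *Penk* UMIs per thinned cell (5.27 to 6.31) in DKO-severe Foxp3-positive cells and 1.91 (1.85 to 1.98) in DKO-severe Foxp3-negative cells. It was 0.2 (0.0649 to 0.467) and 0.0746 (0.0601 to 0.0916) in the same gates of WT. The highest thinned cell held 66 *Penk* UMIs among DKO-severe Foxp3-negative Cd4-gated cells and 13 in the WT gate.

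**Figure D2:**
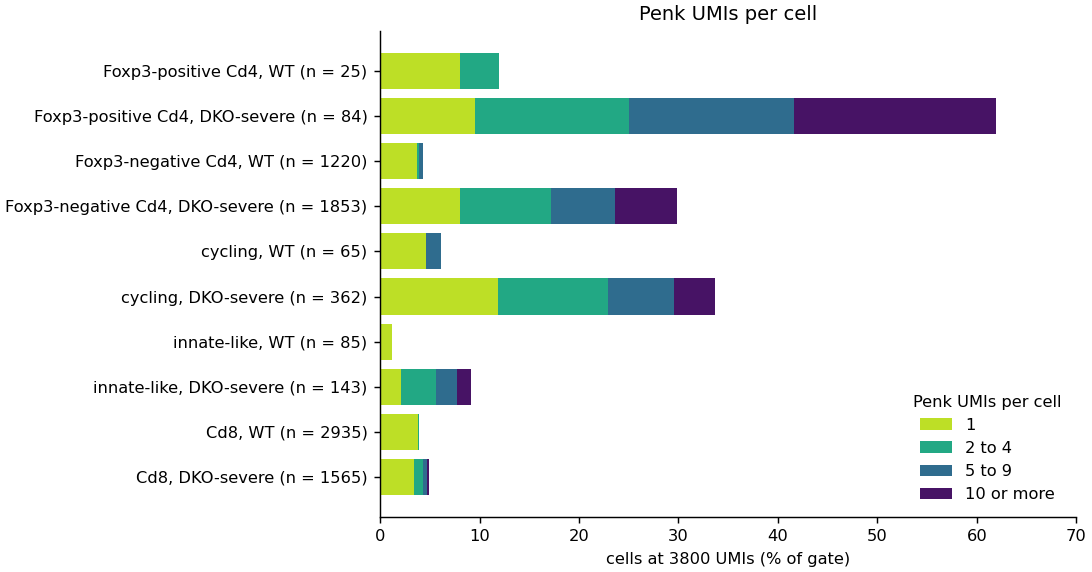
Stacked bars show the share of cells (% of the gate, each cell thinned to 3800 UMIs) by the number of *Penk* UMIs per cell, for 5 gates and both genotypes, with the number of cells in brackets. Cells with 10 or more UMIs number 17 and 116 in the DKO-severe Foxp3-positive and Foxp3-negative Cd4 gates and 0 and 1 in the WT gates.

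As a level over all unthinned cells of a gate, *Penk* stood at 1150 CPM (1119 to 1181) in DKO-severe Foxp3-positive cells and 13.1 CPM (4.80 to 28.4) in WT Foxp3-positive cells, a log2 ratio of 6.46 (5.34 to 7.91) that rests on 6 WT UMIs. In Foxp3-negative cells it stood at 489 CPM (480 to 498) and 18.2 CPM (15.6 to 21.1), a log2 ratio of 4.75 (4.53 to 4.97). By summed counts it was the 127th most abundant transcript of 17173 detected in DKO-severe Foxp3-positive cells and the 234th of 20571 in Foxp3-negative cells. In the WT gates it ranked 7270th and 6313th.

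In the Cd8 gate the difference between the mice rested on few cells. In Cd8-gated cells *Penk* was at 26.9 CPM in DKO-severe and 9.86 CPM in WT (log2 ratio 1.45, 1.21 to 1.69), but 11 of 1735 DKO-severe cells held 65.6% of the UMIs, and without them the level was 9.36 CPM. Of those 11 cells, 9 fell in cluster 5, the cluster with the most *Penk*. In innate-like cells *Penk* was at 282 CPM in DKO-severe and 4.92 CPM in WT (log2 ratio 5.84, 4.48 to 7.72, from 4 WT UMIs). There 29 of 238 DKO-severe cells held 93.7% of the UMIs, and without them the level was 23.8 CPM, still above that of WT. Of these 29 cells, 14 lay in cluster 15, a small cluster with monocyte genes and T cell genes. At equal depth 13 of 143 innate-like DKO-severe cells (9.09%, 4.93 to 15.04) and 1 of 85 WT cells (1.18%, 0.0298 to 6.38) had *Penk*. These intervals overlapped each other and that of DKO-severe Cd8-gated cells. Of the 13, 6 were also in the Foxp3-negative Cd4 gate.

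In cycling cells *Penk* was at 416 CPM in DKO-severe and 21.8 CPM in WT (log2 ratio 4.25, 3.77 to 4.78). Without the 199 of 659 DKO-severe and 2 of 111 WT cells that held 5 or more UMIs the levels were 24.3 and 8.69 CPM. At equal depth cycling cells had *Penk* in 122 of 362 DKO-severe cells (33.7%, 28.8 to 38.8) and 4 of 65 WT cells (6.15%, 1.70 to 15.01). Within DKO-severe Foxp3-negative Cd4-gated cells the share was 38.0% of 100 cycling cells (28.5 to 48.2) and 29.4% of 1753 other cells (27.3 to 31.6). The intervals overlapped, and the mean *Penk* count was 1.74 UMIs per cell in the cycling cells and 1.92 in the others. In the Foxp3-positive gate 2 of 7 cycling cells and 50 of 77 others had *Penk*. The 7 cycling cells are too few for a comparison.

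Over all DKO-severe Cd4-gated cells, detection of *Foxp3* went with a higher share of *Penk*-positive cells. The 16 cells with 2 or more *Foxp3* UMIs were too few to show whether the share changed with the *Foxp3* count. In DKO-severe Cd4-gated cells the share was 29.9% without a *Foxp3* UMI, 63.2% with 1 (43 of 68, 50.7 to 74.6) and 56.2% with 2 or more (9 of 16, 29.9 to 80.2). The intervals for 1 and for 2 or more overlapped widely. *Foxp3* is a low transcript: in cluster 7, the WT cluster with Treg markers, a *Foxp3* UMI was found in 21.2% of thinned WT cells, so cells without a *Foxp3* UMI can include cells that express it.

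Clusters computed without *Penk* split the *Penk*-positive cells into groups. The clusters discussed were chosen after their *Penk* levels had been seen. A cluster found almost wholly in 1 mouse may be that mouse and not a cell type. Of these, 3 made up almost wholly of DKO-severe cells were highest. Cluster 5 (708 DKO-severe and 19 WT cells), led by *Dscam* and *Hapln1*, stood at 1617 CPM (1589 to 1645), with *Penk* in 507 of 682 thinned DKO-severe cells (74.3%, 70.9 to 77.6). It held 55.1% of all *Penk* UMIs of that mouse. The cluster showed 5 of 6 Treg markers (*Foxp3*, *Il2ra*, *Ctla4*, *Ikzf2* and *Tnfrsf18*) and 4 of 6 markers of T follicular helper (Tfh) cells, the helper T cells of the germinal centre.

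Cluster 13 (232 DKO-severe and 2 WT cells) was led by the chemokine genes *Ccl3* and *Ccl4* and by *Spp1*, which encodes osteopontin. *Penk* stood at 1509 CPM (1457 to 1562) there and was found in 160 of 224 thinned cells (71.4%, 65.0 to 77.3). It showed 3 Treg and 4 Tfh markers, none of them among its leading genes, and is called by its number. A *Foxp3* UMI was found in 0.446% of its thinned cells and an *Il21* UMI in 32.6%. High *Penk* was therefore found with and without detected *Foxp3*. Cluster 23, of 33 DKO-severe cells led by *Ctnna2*, *Ccr3* and *Gzmb*, had *Penk* in 27 of 31 thinned cells (87.1%, 70.2 to 96.4) and *Foxp3* in 32.3%.

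Lower levels were found in DKO-severe cells of 5 further clusters, 4 of which also held 34 to 84 WT cells. Their WT cells stood at 5.89 to 31.7 CPM. Cluster 3, with 1216 DKO-severe and 10 WT cells, was led by *Cntn5* and *Ntng1* and showed 5 of 6 Tfh markers. It stood at 257 CPM (248 to 267), with *Penk* in 252 of 1165 thinned cells (21.6%, 19.3 to 24.1) and 5 or more UMIs in 53. Cluster 12, with cell cycle genes, stood at 423 CPM and 38.2% of cells. Clusters 15 and 19, in which macrophage genes led beside T cell genes, stood at 341 and 445 CPM, and cluster 17, led by *Arpp21* and the activation gene *Egr3*, stood at 365 CPM in 61 DKO-severe cells, against 11.3 CPM in its 84 WT cells. Clusters 12 and 15 were also the deepest of these, with medians of 19171 and 21389 UMIs per DKO-severe cell. The part of merged droplets in these clusters was not tested.

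The other clusters with 30 or more DKO-severe cells had *Penk* in 2.36% to 7.29% of cells, near the shares in the Cd8 and B gates. Among them was a cluster rich in *Foxp3*. Cluster 7 (Treg-like) showed 5 of 6 Treg markers, led by *Il2ra* and *Lrrc32*, and held cells of both mice. *Penk* was found there in 7 of 112 thinned DKO-severe cells (6.25%, 2.55 to 12.5) and 21 of 354 WT cells (5.93%, 3.71 to 8.93). Its level was 60.0 CPM (45.1 to 78.3) in DKO-severe and 29.1 CPM (22.9 to 36.4) in WT cells, both above the 9.86 CPM of WT Cd8-gated cells. In DKO-severe, 2 Foxp3-negative Cd4-gated cells held 37 of its 54 UMIs. A *Foxp3* UMI was found in 20.5% of these DKO-severe cells, against 20.97% in cluster 5. Cluster 10, of 321 DKO-severe and 0 WT cells led by *Mal*, *Ctnnd2* and *Myl1*, had *Penk* in 14 of 299 thinned cells (4.68%, 2.58 to 7.73). Shares of *Penk*-positive cells as high as in cluster 5 were thus found neither in every cluster rich in *Foxp3* nor in every cluster of the DKO-severe mouse alone.

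**Figure D3:**
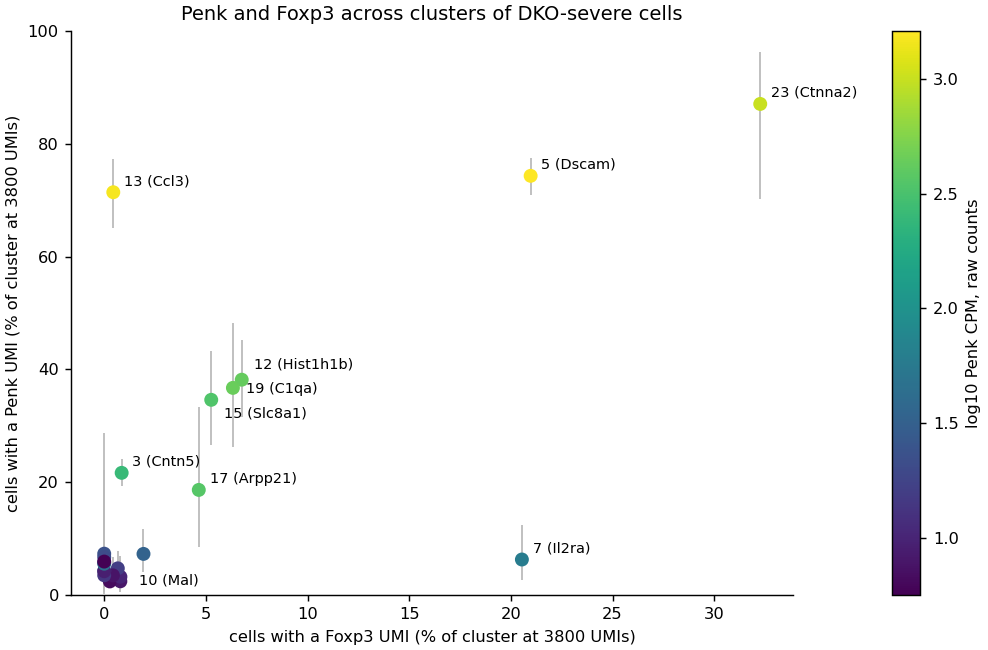
Each point is a cluster with 30 or more DKO-severe cells: the x axis gives the share of its thinned DKO-severe cells with a *Foxp3* UMI (%), the y axis the share with a *Penk* UMI (%, with exact 95% intervals) and the colour the log10 of *Penk* CPM; numbers and leading genes mark the clusters discussed. Clusters 5 and 7 have *Foxp3* in 20.97% and 20.5% of cells but *Penk* in 74.3% and 6.25%, and cluster 13 has *Penk* in 71.4% with *Foxp3* in 0.446%.

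The same split was seen inside each Cd4 gate. Of the DKO-severe Foxp3-positive Cd4-gated cells, with the gate read from unthinned counts, 151 of 199 cells in cluster 5 (75.9%, 69.3 to 81.7) and 1 of 25 in cluster 7 (4.0%, 0.101 to 20.4) had *Penk*. Cluster 5 held 86.9% of the *Penk* UMIs of that gate. The Foxp3-negative gate drew its *Penk* from clusters 5, 13 and 3, which held 34.7%, 33.1% and 20.4% of its UMIs. In cluster 5 the share was 74.1% of cells with a *Foxp3* UMI (106 of 143, 66.1 to 81.1) and 74.4% of cells without (401 of 539, 70.5 to 78.0). Each of these shares lay inside the interval of the other.

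A few WT cells also carried many *Penk* transcripts. Before thinning, 5 or more UMIs were found in 8 WT cells, with 5 to 20 UMIs each, and in 874 DKO-severe cells. Of the 8, 3 were in cluster 7, 2 each in clusters 6 and 12 and 1 in cluster 3, and 2 had a *Foxp3* UMI. The DKO-severe hashtag made up 1.76% to 4.18% of their hashtag counts, below the WT median of 5.30%, so their hashtags did not mark them as DKO-severe cells. Free RNA is not measured by the hashtags.

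Genes that went with *Penk* were sought within the DKO-severe mouse by comparing *Penk*-positive and *Penk*-negative cells of the same gate, with gates from unthinned counts and the genes counted at 3800 UMIs per cell. Among the genes tested (mean of 50 or more CPM and 20 or more UMIs), 1.94% of 3555 genes were 2-fold or more higher and 1.32% were 2-fold or more lower in the 202 *Penk*-positive than in the 122 *Penk*-negative Foxp3-positive cells. In Foxp3-negative cells (662 against 1648) these shares were 1.52% and 0.602% of 3486 genes. A fold of 2 is used as a rule of size. Cells are not replicates, so no p-value is given.

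In Foxp3-positive cells the 10 highest ratios were those of *Sorcs1*, *Dscam*, *Ccl4*, *Cobl*, *Itgae*, *Ccl5*, *Tshz2*, *Muc16*, *Bmyc* and *Il1r2*. *Dscam*, which encodes a neuronal adhesion molecule, was at 268 CPM in *Penk*-positive and 15.1 CPM in *Penk*-negative cells (log2 ratio 4.15, 3.08 to 5.48) and was detected in 28.7% and 3.28% of them. *Itgae*, which encodes the CD103 integrin chain of tissue T cells, was at 133 and 17.3 CPM (log2 ratio 2.94, 1.91 to 4.195). *Il1r2*, the decoy receptor for interleukin 1 found on effector Treg cells, was at 139 and 36.7 CPM (1.93, 1.18 to 2.76). Each of these genes was found in more of the *Penk*-positive cells.

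For 2 of the 10 genes the ratio rested on few cells: *Ccl4* was found in 6.44% and 4.10% of the cells and *Sorcs1*, with the highest ratio, in 13.4% and 0.820%. The 5 lowest ratios (*Ngp*, *Lcn2*, *Camp*, *S100a9* and *S100a8*) were all granulocyte genes. Their summed level, over the 6 listed granulocyte markers, was 191 CPM in *Penk*-positive and 4286 CPM in *Penk*-negative cells. Without the 3 and 2 cells that held 10 or more UMIs of these markers it was 74.0 and 74.6 CPM. *Foxp3* itself, which had selected these cells, was at 132 and 136 CPM.

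In Foxp3-negative cells the 10 highest ratios were those of *Ccl3*, *Ccl4*, *Havcr2*, *Spp1*, *Tnip3*, *Nkg7*, *Ccl5*, *Morrbid*, *Tnfrsf9* and *Nr4a2*. *Ccl3*, a chemokine gene of activated T cells, was at 962 CPM in *Penk*-positive and 54.8 CPM in *Penk*-negative cells (log2 ratio 4.13, 3.97 to 4.30). *Havcr2*, which encodes the inhibitory receptor TIM-3, was at 113 and 10.2 CPM (3.47, 3.08 to 3.88). *Tnfrsf9*, which encodes the costimulatory receptor 4-1BB, was at 230 and 53.2 CPM (2.11, 1.92 to 2.31). *Ccl3*, *Ccl4*, *Spp1*, *Tnip3* and *Havcr2* are also leading genes of cluster 13, which held 136 of the 662 *Penk*-positive cells of this gate.

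The 5 lowest ratios in Foxp3-negative cells were those of *Pde3b*, *4933406I18Rik*, *Rflnb*, *Pag1* and *Grap2*, between -1.83 and -1.63. *Pag1* and *Grap2* encode adaptors of T cell receptor signalling. The median unthinned depth was 9240 UMIs in *Penk*-positive and 7758 in *Penk*-negative Foxp3-negative cells, and 19.9% and 10.1% of them were in the cycling gate. The part of these differences in the ratios was not tested. *Ccl4* and *Ccl5* were the 2 genes among the 10 highest in both gates.

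**Figure D4:**
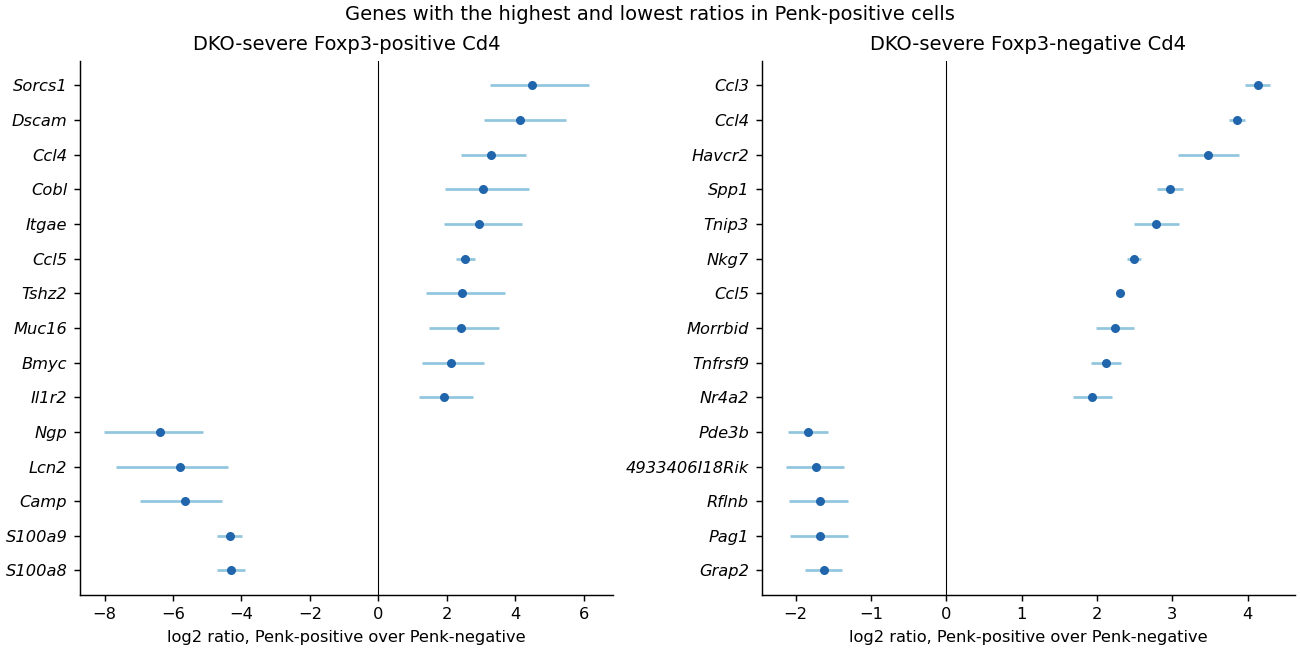
Points show the log2 ratio of *Penk*-positive over *Penk*-negative DKO-severe cells for the 10 highest and 5 lowest genes in the Foxp3-positive (left) and Foxp3-negative (right) Cd4 gates, with exact 95% counting intervals. *Sorcs1* and *Dscam* lead on the left at 4.50 and 4.15, *Ccl3* and *Ccl4* on the right at 4.13 and 3.85, and the 5 lowest genes on the left are granulocyte genes.

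Some of these genes also separated *Penk*-positive from *Penk*-negative cells within single clusters. In cluster 3, *Penk*-positive and *Penk*-negative Cd4-gated cells (214 and 756) differed in *Ccl4* (log2 ratio 2.28, 1.87 to 2.70), *Tnfrsf9* (0.73, 0.36 to 1.09) and *Dscam* (2.82, 1.14 to 4.72). In cluster 5 (322 and 114) the log2 ratio was 2.05 (1.53 to 2.62) for *Dscam*, 2.97 (1.89 to 4.31) for *Itgae* and 1.16 (0.86 to 1.47) for *Tnfrsf9*. *Ccl5*, high in the whole gates, was at 0.60 in cluster 3 and 0.10 in cluster 5. *Dscam* in cluster 3 was at 12.3 and 1.74 CPM, below the filter on level. Other genes did not follow the gates: *Spp1* was at -2.18 (-3.48 to -0.95) in cluster 5 and 1.31 (1.05 to 1.56) in cluster 3, and *Havcr2* was at -0.33 (-0.99 to 0.35) in cluster 5 and had 0 UMIs in *Penk*-positive cells of cluster 3.

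The share of *Penk*-positive cells moved with some of these genes inside the clusters too. In cluster 5, *Penk* was found in 157 of 169 cells with *Dscam* (92.9%, 87.9 to 96.3) and in 350 of 513 without (68.2%, 64.0 to 72.2). In cluster 13 it was found in 122 of 143 cells with *Ccl3* (85.3%, 78.4 to 90.7) and in 38 of 81 without (46.9%, 35.7 to 58.3). By contrast, in cluster 3 the share was 20.2% of 430 cells with *Il21* (16.5 to 24.4), the cytokine gene of Tfh cells, and 22.4% of 735 without (19.5 to 25.6).

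By gene lists, some effector and tissue Treg genes were higher and some naive-state genes lower in *Penk*-positive cells. These counts cover the list members that passed the filter on level, and are descriptions. Over all genes tested, 1.94% were 2-fold or more higher and 1.32% lower in Foxp3-positive cells. In Foxp3-negative cells these shares were 1.52% and 0.602%. Of 8 effector and tissue Treg genes tested (of 16 listed) in Foxp3-positive cells, 3 were 2-fold or more higher and 0 lower, with a median log2 ratio of 0.67 against 0.05 over all genes tested. They were *Itgae*, *Tnfrsf9* and *Tnfrsf4*, which encodes OX40 (log2 ratio 1.19, 0.97 to 1.41). In Foxp3-negative cells 3 of 6 tested were higher and 0 lower (median 0.82): *Tnfrsf9*, *Tnfrsf4* (1.32, 1.23 to 1.42) and *Tnfrsf1b*. Other members went the other way: *Rora* was at -0.43 (-0.72 to -0.15) in Foxp3-negative cells, and in Foxp3-positive cells *Il10* and *Il12rb2*, below the filter on level, had 5 against 11 and 1 against 6 UMIs. Of the Treg list, 0 of 8 and 2 of 6 genes were 2-fold or more higher, the 2 being *Ikzf2*, which encodes Helios (1.47, 1.41 to 1.54), and *Tnfrsf18*, which encodes GITR (1.23, 1.10 to 1.36). The medians of this list were 0.40 and 0.89. In Foxp3-positive cells *Ctla4* was lower, at -0.37 (-0.61 to -0.12). *Lrrc32*, below the filter on level there, had 3 against 10 UMIs.

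Of 7 naive-state genes tested in each gate, 2 and 5 were 2-fold or more lower and 0 higher, with medians of -0.98 and -1.08. *Lef1*, a factor of naive T cells, was at 144 CPM in *Penk*-positive and 314 CPM in *Penk*-negative Foxp3-negative cells (log2 ratio -1.12, -1.29 to -0.96). *Il7r*, which encodes the interleukin 7 receptor, was at 0.78 (0.51 to 1.06) in Foxp3-positive and -0.70 (-0.83 to -0.58) in Foxp3-negative cells. Of the Tfh list 0 of 7 and 0 of 8 genes differed 2-fold, with medians of 0.29 and -0.02. *Il21* was at 80.3 and 87.8 CPM in *Penk*-positive and *Penk*-negative Foxp3-negative cells.

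Of the activation list, 2 of 5 genes were 2-fold or more higher in each gate, *Tnfrsf9* and *Nr4a2*, an early gene of receptor signalling. *Tnfrsf9* is also in the effector and tissue Treg list. The medians of the activation list were 0.02 in Foxp3-positive and 0.62 in Foxp3-negative cells. In Foxp3-positive cells *Cd69* went the other way, at -0.50 (-0.96 to -0.04). *Penk* is a classic target of CREB and AP-1 factors in neurons. None of the 11 and 9 genes tested of the AP-1, CREB, NFAT and steroid receptor list reached 2-fold in either direction, and their medians were 0.30 and -0.10. Few of all genes tested did so (1.94% and 1.52% higher, 1.32% and 0.602% lower), so these counts are near the share over all genes. The activity of the factors was not measured. Cell cycle genes were lower in *Penk*-positive Foxp3-positive cells (2 of 4 tested 2-fold or more lower, *Mki67* and *Ube2c*, median -1.21), where 18.8% of *Penk*-positive and 29.5% of *Penk*-negative cells were in the cycling gate. The 1 cell cycle gene tested in Foxp3-negative cells, *Top2a*, was at a log2 ratio of 0.44. Of the innate-like list 0 of 2 genes differed 2-fold in either gate.

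Of the B cell list 1 gene was tested in Foxp3-positive cells, *Ebf1* (log2 ratio 1.63, 0.80 to 2.58), and none in Foxp3-negative cells. The summed level of the 6 B cell markers was 113 CPM in *Penk*-positive and 73.3 CPM in *Penk*-negative Foxp3-positive cells, and 66.4 and 72.3 CPM in Foxp3-negative cells. In Foxp3-positive cells *Ebf1* alone was at 93.8 and 30.2 CPM. It was also the only B cell marker that counted for clusters 5 and 23. *Ms4a1* (5.21 and 15.1 CPM), *Ly6d* (0 and 12.9 CPM) and *Cd79b* (5.21 and 6.47 CPM) went the other way, on few UMIs. *Cd79a* was at 9.12 and 8.63 CPM. The summed level of the 6 monocyte or macrophage markers was 479 and 541 CPM in Foxp3-positive cells, and 397 and 306 CPM in Foxp3-negative cells. Neither of the 2 monocyte or macrophage genes tested differed 2-fold in either gate. The granulocyte markers summed to 1214 and 1347 CPM in Foxp3-negative cells, where 0 of 4 tested differed 2-fold. Their part in the ratios was not tested.

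Genes that an earlier account of these cells had singled out as appearing in the DKO-severe mouse went in both directions. Of 4 tested in Foxp3-positive cells, *Dscam* was 2-fold or more higher and *Cntn5* lower (92.5 against 643 CPM, log2 ratio -2.80, -3.19 to -2.42). Of 4 tested in Foxp3-negative cells, 0 were higher and 1, *Ntng1*, was lower (127 against 331 CPM, -1.38, -1.56 to -1.21). Below the filter on level in that gate, *Dscam* was at 89.4 against 7.67 CPM (3.54, 3.09 to 4.03) and *Hapln1* at 39.0 against 6.87 CPM (2.50, 1.97 to 3.06). Inside clusters *Hapln1* did not keep the ratio of the Foxp3-negative gate. In Cd4-gated cells of cluster 5 its ratio was 0.76 (0.24 to 1.31), near the 0.74 (0.19 to 1.31) of the Foxp3-positive gate. In cluster 3 *Hapln1* was at 0 against 6.96 CPM. In cluster 5 *Penk* was found in 73.4% of cells with *Hapln1* and 74.6% without. This list was chosen on these same cells.

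Counted by *Penk* UMIs in DKO-severe Cd4-gated cells, *Dscam* was found in 1.2% of 1331 cells with 0, 5.13% of 156 cells with 1, 12.5% of 184 cells with 2 to 4, 21.1% of 133 cells with 5 to 9 and 22.6% of 133 cells with 10 or more. *Tigit*, which encodes an inhibitory receptor, went from 7.96% of cells with 0 to 27.8% of cells with 10 or more *Penk* UMIs, and *Il2ra*, which encodes CD25, from 10.3% to 28.6%. *Lef1* went from 50.9% to 24.1% and *Cxcr5*, the homing receptor of Tfh cells, from 13.8% to 5.26%. For each of these 5 genes, cells with 1 *Penk* UMI lay nearer to cells with 0 than to cells with 10 or more. The Tfh genes were mixed: *Bcl6* went from 26.2% to 18.8% and *Tox2* from 30.5% to 21.1%, but *Pdcd1* from 27.3% to 34.6% and *Icos* from 64.8% to 72.2%. The bins were of equal thinned depth, and the median depths before thinning ran from 7522 to 10586 UMIs.

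**Figure D5:**
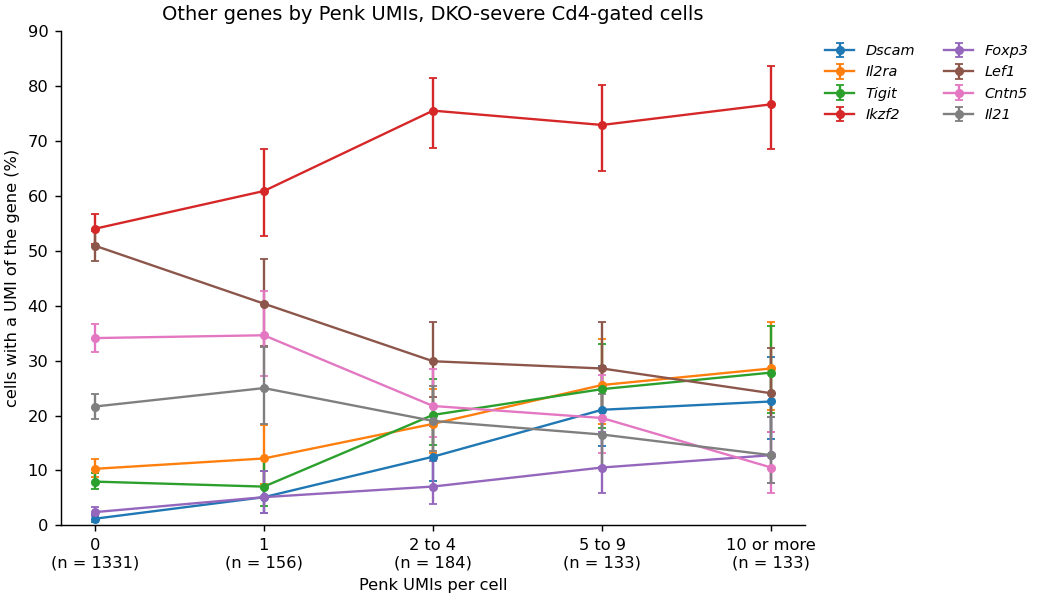
Lines show the share of DKO-severe Cd4-gated cells (%, each thinned to 3800 UMIs) with a UMI of 8 genes, by the number of *Penk* UMIs in the cell, with exact 95% binomial intervals. *Dscam*, *Il2ra*, *Tigit*, *Ikzf2* and *Foxp3* are higher and *Lef1*, *Cntn5* and *Il21* lower in cells with 10 or more *Penk* UMIs than in cells with 0; *Dscam* goes from 1.2% to 22.6% and *Lef1* from 50.9% to 24.1%.

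Of the genes that process proenkephalin, *Pcsk1* was also higher in the DKO-severe mouse. *Pcsk1*, which encodes a convertase that cuts it, was at 162 CPM (157 to 167) in DKO-severe and 1.53 CPM (0.858 to 2.53) in WT Foxp3-negative Cd4-gated cells, a log2 ratio of 6.72 (6.0 to 7.56). In that contrast, 7.99% of 3355 genes were 2-fold or more higher in DKO-severe and 3.28% lower. *Pcsk1* was the 1 of 9 listed processing and granule genes to pass the filter on level. *Scg2*, which encodes the granule protein secretogranin II and did not pass it, was at 52.7 and 0.716 CPM.

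The clusters with the most *Pcsk1* were not those with the most *Penk*, though cluster 3 held both. *Pcsk1* stood at 288 CPM in cluster 3 and 310 CPM in cluster 10, whose *Penk* was near background, and at 40.8 and 23.5 CPM in clusters 5 and 13. In DKO-severe Cd4-gated cells a *Pcsk1* UMI was found in 110 of 606 *Penk*-positive cells (18.2%, 15.2 to 21.5) and 346 of 1331 *Penk*-negative cells (26.0%, 23.7 to 28.4). Inside cluster 3 these shares were 40.7% (33.2 to 48.6) and 37.6% (33.8 to 41.5). *Scg2* stood at 236 CPM in cluster 13, 75.3 CPM in cluster 3 and 2.28 CPM in cluster 5. In cluster 13 it was found in 31.0% of 129 *Penk*-positive and 30.8% of 52 *Penk*-negative cells. In cluster 3 it was found in 18.6% of 167 *Penk*-positive (12.97 to 25.3) and 7.26% of 620 *Penk*-negative cells (5.34 to 9.59).

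*Cpe*, the gene of carboxypeptidase E, had 19 UMIs in DKO-severe and 4 in WT Foxp3-negative Cd4-gated cells. As levels these were 0.817 CPM (0.492 to 1.28) and 0.409 CPM (0.111 to 1.05), with overlapping intervals. Of the other opioid precursor genes, *Pdyn* had 0 UMIs in both gates, which allows up to 0.129 CPM in DKO-severe and 0.307 CPM in WT, and *Pomc* was at 2.02 and 3.07 CPM. None of the listed enkephalin-degrading peptidases passed the filter on level. *Penk* was the 1 opioid precursor at a high level in these cells.

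The genes whose level across clusters was most like that of *Penk* were *Pex11a*, *Nrn1*, *Areg*, *Gna14*, *Fmn1*, *Slc24a3*, *Fgf2*, *Ier5l*, *Jakmip2* and *Larp1b*. Pearson's r of log2(CPM + 5) with *Penk* ran from 0.94 to 0.90 over 33 sums of cluster and genotype, among 9749 genes compared. Over the 22 DKO-severe sums alone it ran from 0.891 to 0.941. *Nrn1*, which encodes the surface protein neuritin, reached 976 CPM in cluster 5 of DKO-severe cells, and *Areg*, which encodes the tissue-repair factor amphiregulin, reached 73.6 CPM there. The sums share 1 library and differ in depth, and the ranking chose the genes.

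The protein-coding genes nearest to *Penk* on chromosome 4 did not show a ratio of its size, where a ratio could be given. Of the 3 nearest on each side, *Sdr16c6*, 56.0 kb away, and *Sdr16c5*, 114 kb away, had 0 UMIs in DKO-severe Foxp3-negative Cd4-gated cells. No ratio could be given for either. *Gm11808*, 160 kb away, was at 116 CPM in DKO-severe and 158 CPM in WT (log2 ratio -0.45, -0.54 to -0.36). *Impad1*, 624 kb away on the other side, was at 24.0 and 20.6 CPM (0.22, -0.01 to 0.46). *Ubxn2b*, 2050 kb away, was at 17.2 and 12.7 CPM (0.44, 0.15 to 0.74). *Fam110b*, 1510 kb away, was lower in DKO-severe, with 14 UMIs against 61 in WT (-3.37, -4.32 to -2.52).

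T cell receptor β V segments of *Penk*-positive cells were uneven. Among DKO-severe Cd4-gated cells with a single leading segment, *Trbv12-2* led in 152 of 355 *Penk*-positive cells (42.8%, 37.6 to 48.2) and 159 of 620 *Penk*-negative cells (25.6%, 22.2 to 29.3). *Trbv19* led in 4.23% (2.38 to 6.87) and 15.8% (13.02 to 18.9). *Trbv12-2* led in 8.33% (5.77 to 11.6) of the 384 WT Cd4-gated cells. Summed up as 1 over the sum of squared shares, the segments counted as 3.95 equally used ones in *Penk*-positive, 5.92 in *Penk*-negative DKO-severe cells and 13.2 in WT cells.

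Inside clusters the leading segment of *Penk*-positive cells was also that of *Penk*-negative cells. In cluster 5 *Trbv12-2* led in 58.6% of 152 *Penk*-positive and 53.3% of 60 *Penk*-negative cells, and in cluster 13 *Trbv13-2* led in 66.7% of 48 and 57.7% of 26. In cluster 3 *Trbv13-2* led in 31.2% of 77 and 35.9% of 281. *Penk* was found in 48.9% of 311 cells led by *Trbv12-2* (43.2 to 54.6), 35.2% of 247 led by *Trbv13-2* (29.3 to 41.5) and 13.3% of 113 led by *Trbv19* (7.62 to 20.9). Segments counted at the 3' end are a coarse sign of receptor identity and do not define clones.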

How the data were processed

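TCRβ+ cells of both genotypes were sequenced as 1 mRNA and 1 hashtag library (10x Genomics 3' chemistry). The authors deposited unnormalized UMI counts per gene and barcode, 1 matrix per genotype, made with Cell Ranger 7.1.0 (per the file headers) on mm10; Seurat is also named in the submitters' processing notes. Whether intronic reads were counted is not given in the sources used here. The files held 14350 barcodes, against 10000 loaded cells per the labels.

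Barcodes with 500 or more genes and at most 10% mitochondrial UMIs were retained, 3 WT barcodes with mismatched hashtags were dropped, and the highest 6% of Scrublet scores (scanpy 1.11.5) in each matrix were removed as likely doublets, because its own threshold marked only 4 and 3 barcodes. Clusters came from the Leiden algorithm (leidenalg 0.10.2, resolution 1.0, 20 neighbours, 30 components), with *Penk*, T cell receptor, immunoglobulin, haemoglobin, mitochondrial, ribosomal and sex-linked genes kept out. A marker counted for a cluster when found in 20% or more of its cells and at 2 or more times the share elsewhere. Total depth was 45294779 UMIs in WT and 69692053 in DKO-severe barcodes.

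Shares used cells thinned to 3800 UMIs, with exact binomial (Clopper-Pearson) intervals; levels used summed raw counts per 1000000 UMIs (CPM) with exact Poisson intervals; log2 ratios used exact conditional intervals, a count below 3 UMIs being set to 3, and none was given where neither side exceeded 3. Limits for a count of 0 are those of 3 counts. The ratio and thinning code was tested on simulated data. Named genes were *Penk*, list members, the 10 highest and 5 lowest ratios per *Penk* contrast without receptor, immunoglobulin, haemoglobin, mitochondrial and sex-linked genes, the 10 genes most like *Penk* and 3 neighbours on each side. *Dscam*, *Ccl3*, *Il21* and others shown within clusters or by *Penk* UMIs were chosen after their values were seen. The gene, its gates, the lists and the alternatives were chosen with earlier results of these data known. Some genes are not reported here.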

Additional observations from a re-analysis of the deposited data

Results flagged for a closer look

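*Penk* was also found in barcodes outside the shares by gate. Among barcodes removed as likely doublets it was found in 188 of 406 DKO-severe barcodes (46.3%, 41.4 to 51.3) and 30 of 421 WT barcodes (7.13%, 4.86 to 10.0), at median depths of 15879 and 8705 UMIs and levels of 408 and 8.06 CPM.

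Among thinned cells that met none of the gates *Penk* was found in 481 of 1916 DKO-severe cells (25.1%, 23.2 to 27.1) and 76 of 1616 WT cells (4.70%, 3.72 to 5.85). Of the DKO-severe cells, 220 held 5 or more UMIs, against 0 of the WT cells. Cells in no gate did enter the values by cluster, and gates read on unthinned counts can include some of them. Both sets were picked out because the DKO-severe share lay above that of the WT mouse, the control.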

How the results depend on the processing

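Counts of cells with *Penk* depended on depth and on the number of UMIs asked for, while the order of the genotypes in the Cd4 gates did not change under any alternative. Without thinning the shares (WT, then DKO-severe) were 5.91% and 35.6% in Foxp3-negative Cd4-gated and 6.46% and 8.41% in Cd8-gated cells, and in DKO-severe cells 23.1% in the innate-like and 46.1% in the cycling gate. Thinned to 2000 UMIs they were 2.77% and 24.6% in Foxp3-negative cells, 1.94% and 2.85% in Cd8-gated cells, 0% in WT Foxp3-positive, 25.8% in DKO-severe cycling and 0.453% in DKO-severe B-gated cells. With 2 or more *Penk* UMIs they were 0.656% and 21.9% in Foxp3-negative, 0.136% and 1.47% in Cd8-gated and 1.54% and 21.8% in cycling cells, and 0% in WT innate-like and in B-gated cells of both mice. With 5 or more, an alternative chosen after seeing the data, they were 0% and 36.9% in Foxp3-positive, 0.410% and 12.7% in Foxp3-negative, 0.0341% and 0.639% in Cd8-gated, 0% and 3.50% in innate-like, 1.54% and 10.8% in cycling and 0% and 0% in B-gated cells.

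The log2 ratio of DKO-severe over WT was 4.41 in Foxp3-negative and 1.10 in Cd8-gated cells with a pseudocount of 5 CPM. With equal weight per cell it was 1.13 in Cd8-gated and 4.24 in innate-like cells, and without doublet removal it was 2.14 in Cd8-gated cells. The ratio of the B gate (-2.95) rested on 2 WT UMIs.

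Genes 2-fold or more higher and lower in *Penk*-positive cells numbered 69 and 47 in the Foxp3-positive gate. They were 33 and 26 with full counts, 26 and 17 at a mean of 100 or more CPM, and 128 and 75 within cluster 5. In the Foxp3-negative gate they numbered 53 and 21, and became 29 and 10 at 100 or more CPM, 88 and 45 with 2 or more *Penk* UMIs, 126 and 75 with 5 or more, 8 and 4 within cluster 3 and 136 and 35 within cluster 5; the alternatives within clusters and with 5 or more UMIs were added after seeing the data. The cause of these shifts was not tested. The other 102 recomputed values kept their direction and moved by less than their own counting interval or, for counts of genes, by less than 1.5 times. No paired analysis was possible because each genotype had 1 mouse. The small WT Foxp3-positive gate (25 thinned cells) limits every WT value read from it.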

Other observations

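The mu opioid receptor gene *Oprm1* was counted in T cells of both mice. It stood at 131 CPM (123 to 138) in WT and 152 CPM (147 to 157) in DKO-severe Foxp3-negative Cd4-gated cells, at 125 and 106 CPM in Cd8-gated cells, and at 15 CPM (9.16 to 23.2) in DKO-severe B-gated cells. Among DKO-severe clusters it was at 212 CPM in cluster 3, 142 CPM in cluster 5 and 102 CPM in cluster 13. In GENCODE M21 *Ipcef1* and *Gm10945* overlap *Oprm1* (chromosome 10, 6758506 to 7038198, plus strand) on the opposite strand, and whether the counted reads are *Oprm1* messenger RNA was not tested. The other opioid receptor genes had few or no UMIs: in DKO-severe Foxp3-negative Cd4-gated cells *Oprd1*, *Oprk1* and *Oprl1* each stood at or below 0.129 CPM.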
